A study of Mus musculus with 30 samples.

Results

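The genes described here are 40 genes of late G2 phase and mitosis, the last steps of the cell cycle, measured by bulk RNA sequencing in mammary tumours of MMTV-PyMT mice. The members were taken by symbol from a list of G2/M cyclins, mitotic kinases, kinesins, kinetochore genes and cytokinesis genes. All 40 of 40 were among the 21841 genes of the table, and all 40 were tested with the 13663 genes that passed the filter on low counts. The 30 libraries came from 30 mice in 6 groups of 5. All mice carried the FVB/N-Tg(MMTV-PyVT)634Mul/J transgene, in which the mouse mammary tumour virus promoter drives polyoma middle T antigen in mammary epithelium, and the genotype label was otherwise WT. The age of the mice is not given in the labels. The groups received vehicle, 5-FU at 40 mg/kg every 4 days, gemcitabine at 64 mg/kg every 7 days, KCL-HO-1i at 25 µmol/kg daily, KCL-HO-1i with 5-FU, or KCL-HO-1i with gemcitabine. KCL-HO-1i inhibits the heme-degrading enzyme heme oxygenase-1, 5-FU and gemcitabine are chemotherapies that interfere with DNA synthesis, and injections were intraperitoneal. Tumours were collected 72 hours after the start of treatment per the labels, and these labels were followed here, although the methods of the study differ from them in time and in gemcitabine dose.

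A cell enters mitosis when cyclin-dependent kinase 1 is activated by A- and B-type cyclins, after which Polo-like and Aurora kinases build the spindle, kinetochores bind its microtubules, and the spindle checkpoint holds back chromosome separation until every chromosome is attached. The anaphase-promoting complex, switched on by Cdc20, then destroys cyclin B and securin, and a contractile ring divides the cell. Most of these genes are transcribed mainly in G2 and M phase, through the transcription factor FOXM1 and the MuvB complex, so that in a tumour their RNA is widely read as a measure of how many cells are dividing. In bulk samples, fewer dividing cells and less of their RNA per cell cannot be told apart.

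Promoter sequences are shown for 7 members because the members moved together from tumour to tumour and such promoters are known for 2 shared elements, the CCAAT box bound by NF-Y and the cell cycle homology region (CHR) bound by MuvB. RefSeq promoters of GRCm38.p6, the mm10 build that the processing notes name, were matched for 32 of the 40 members, and none was matched for Aurkb, Ccna2, Dlgap5, Foxm1, Incenp, Kif20a, Pbk and Tpx2. The 120 bases before each annotated start are given 5′ to 3′ on the strand of the gene. Capitals mark CCAAT or its reverse complement ATTGG, and TTTGAA or TTTAAA, or TTCAAA, the reverse complement of the former. The stretches lie at chr13:100786487-100786606 (minus strand) for Ccnb1, chr9:70421555-70421674 (minus strand) for Ccnb2, chr10:69352913-69353032 (minus strand) for Cdk1, chr4:118437344-118437463 (minus strand) for Cdc20, chr7:122159315-122159434 (plus strand) for Plk1, chr2:164769809-164769928 (plus strand) for Ube2c and chr11:99024190-99024309 (minus strand) for Top2a.
Ccnb1: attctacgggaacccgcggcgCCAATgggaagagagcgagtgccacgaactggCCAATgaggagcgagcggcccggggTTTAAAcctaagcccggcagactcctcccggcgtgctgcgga
Ccnb2: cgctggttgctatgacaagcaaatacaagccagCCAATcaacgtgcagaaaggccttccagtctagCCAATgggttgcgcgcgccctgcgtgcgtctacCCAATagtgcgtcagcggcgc
Cdk1: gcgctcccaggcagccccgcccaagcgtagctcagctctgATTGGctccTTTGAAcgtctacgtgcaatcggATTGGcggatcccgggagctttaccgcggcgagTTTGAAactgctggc
Cdc20: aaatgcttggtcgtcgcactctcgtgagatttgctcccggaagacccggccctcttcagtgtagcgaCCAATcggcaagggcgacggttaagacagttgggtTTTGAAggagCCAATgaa
Plk1: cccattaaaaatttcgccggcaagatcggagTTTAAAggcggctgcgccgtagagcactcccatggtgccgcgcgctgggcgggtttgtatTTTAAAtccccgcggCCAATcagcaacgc
Ube2c: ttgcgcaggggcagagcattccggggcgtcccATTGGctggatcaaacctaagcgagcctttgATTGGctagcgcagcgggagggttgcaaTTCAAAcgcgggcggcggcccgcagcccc
Top2a: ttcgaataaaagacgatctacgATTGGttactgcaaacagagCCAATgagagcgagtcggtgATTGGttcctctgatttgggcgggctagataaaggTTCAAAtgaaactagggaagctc
Within 250 bases before the start, 25 of the 32 members with a sequence (78.1%) held at least 1 CCAAT on either strand, against 34.5% of the 27025 genes with a promoter sequence. At least 2 CCAAT were found in 17 members (53.1%), against 10.5% of all genes. A CHR motif in either form was present in 16 of the 32 members, against 25.5% of all genes, and CCAAT together with CHR in 14 (43.8%), against 8.995%. A CCAAT and a CHR may share a base and were then both counted. These matches describe the letters of the promoters, and no binding was measured.

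Library totals ran from 10067577 to 13622264 counts, and the 40 members held between 0.0427% and 0.414% of the counts of a library. The lowest estimated count of any member in any library was 37.1 reads, well above the floor of 3 counts, which corresponded to 0.215 to 0.302 CPM (counts scaled to the effective size of the library, the unit of all levels below). The share of mitochondrial counts ran from 1.44% to 9.69%. All 8 epithelium markers had reads, and their summed level was 4844 to 5800 CPM in vehicle tumours and 2536 to 5715 CPM in KCL-HO-1i/5-FU tumours. Adipocyte and skeletal muscle markers were high in a few tumours, KCL-HO-1i replicate 4 and KCL-HO-1i/gemcitabine replicate 2 above all. Each mouse bears a code in the labels whose number takes 13 values, and its meaning is not stated.

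Mitosis genes were low in most tumours given KCL-HO-1i with 5-FU. The mean log2 CPM over the 40 members was 4.29 ± 0.83 (SD, n = 5) in that group, whereas vehicle stood at 5.36 ± 0.25 and KCL-HO-1i alone at 5.33 ± 0.22. It was 4.97 ± 0.80 in 5-FU, 5.62 ± 0.72 in gemcitabine and 5.16 ± 0.37 in KCL-HO-1i/gemcitabine. All 40 members had their lowest group mean, and also their lowest group median, in KCL-HO-1i/5-FU. All 40 had their highest group mean in gemcitabine, although by the median only 26 did.

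Tumours within a group differed widely. Of the 5 tumours with the lowest mean, 4 were KCL-HO-1i/5-FU tumours, at 3.17 (replicate 2), 3.81 (replicate 3), 4.52 (replicate 1) and 4.56 (replicate 5). The other was 5-FU replicate 5, at 3.55, while the other 5-FU tumours lay between 5.18 and 5.43. KCL-HO-1i/5-FU replicate 4, at 5.38, lay within the range of the vehicle tumours (5.03 to 5.57). The highest were gemcitabine replicate 3 (6.44) and replicate 1 (6.25), and the others of that group lay between 4.78 and 5.49. From the lowest to the highest tumour the mean level differed 9.67-fold, and 38.7% of its spread over the 30 tumours lay between the 6 groups.

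**Figure D1:**
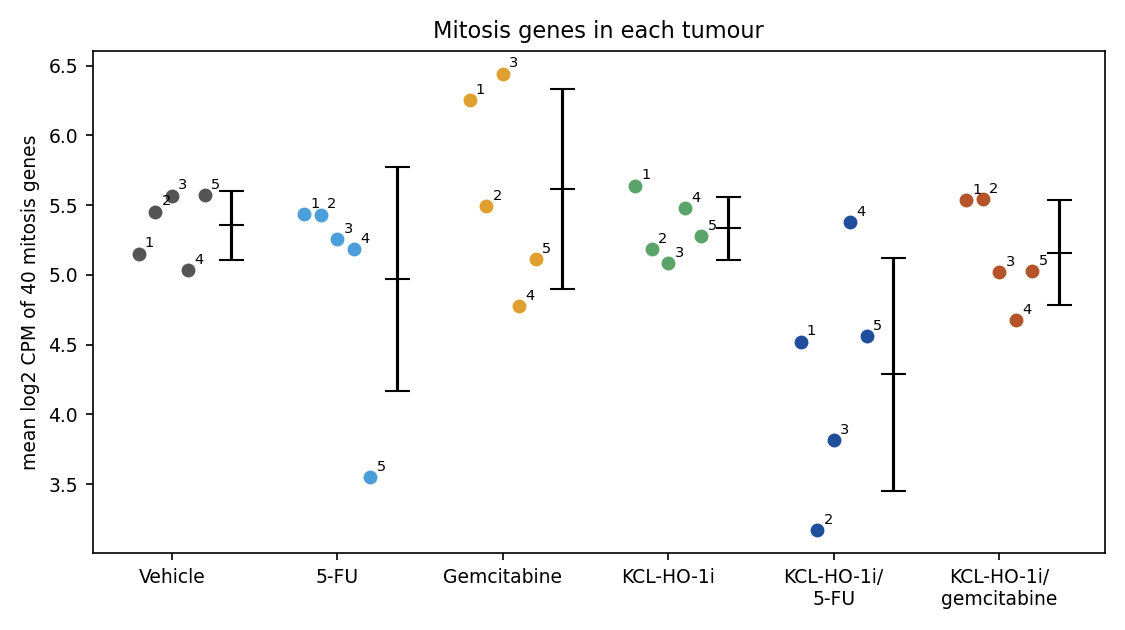
Mean log2 CPM of the 40 mitosis genes in each of the 30 tumours, by treatment group, with the replicate number beside each point; the bar beside the points gives the group mean and its error bar 1 SD (n = 5). Of the KCL-HO-1i/5-FU tumours, 4 lie below every vehicle tumour and replicate 4 (5.38) does not, and in the 5-FU group replicate 5 (3.55) lies apart from the rest.

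Mki67 encodes Ki-67, the nuclear protein that marks cycling cells in pathology. In vehicle tumours its level was 146, 150.3, 251, 142 and 200.1 CPM, and in KCL-HO-1i/5-FU tumours 66.3, 30.0, 54.3, 161 and 83.3 CPM, in the order of the replicates. Every KCL-HO-1i/5-FU tumour but replicate 4 lay below every vehicle tumour. The log2 fold change was -1.17 ± 0.42 (SE), a level of 0.444-fold of vehicle, with an adjusted p of 0.158 in edgeR's quasi-likelihood test. The 5-FU tumours held 183, 141, 192, 129 and 46.2 CPM, the gemcitabine tumours 264, 153, 477, 146 and 108 CPM, the KCL-HO-1i tumours 180.5, 175, 97.4, 229.9 and 124 CPM and the KCL-HO-1i/gemcitabine tumours 177, 197, 99.2, 84.5 and 113 CPM. These groups overlapped vehicle, with 1 gemcitabine tumour (replicate 3) far above the rest and 1 5-FU tumour (replicate 5) far below. Tumours below every vehicle tumour were also found in these groups. They were 5-FU replicates 2, 4 and 5, gemcitabine replicate 5, KCL-HO-1i replicates 3 and 5, and KCL-HO-1i/gemcitabine replicates 3, 4 and 5.

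Against vehicle, 0 of the 40 members passed the adjusted threshold of 0.05 in KCL-HO-1i/5-FU tumours, as did 0% of all 13663 genes tested, and the smallest adjusted p of a member was 0.125. At an unadjusted p under 0.05, 32 of 40 members were lower, against 7.84% of all genes tested that were lower by the same rule. The log2 fold changes were negative for all 40 members, from -1.22 to -0.41, with a median of -0.91, against 0.01 over all genes tested. In 36 of 40 members at least 4 of the 5 tumours lay below every vehicle tumour, which held for 7.61% of all genes tested. With the alternative tools the count of calls moved off 0. DESeq2 called 2 of 40 members (Pbk and Ttk) and 408 of the 13663 genes, so its calls were not particular to the members. Limma-voom with quality weights called 10 of 40 members and 169 of the 13663 genes. The calls also depended on 1 tumour, since edgeR, with replicate 4 of the combination left out, called 8 members (Bub1, Ndc80, Hmmr, Racgap1, Foxm1, Tpx2, Kif4 and Prc1) and 186 genes in all, with a member median of -1.28. The unadjusted count was 19 without replicate 2 and 20 without replicate 3 of the combination. Here and below, unadjusted counts without single tumours are for members only. The share of all genes in those refits was not set beside them. They show how far a count depends on 1 tumour and nothing particular to the members.

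The cyclins and their kinase were among the members with the lowest ratios. Ccnb1, cyclin B1, measured 54.4, 76.9, 82.1, 41.7 and 83.2 CPM in vehicle and 34.6, 13.4, 19.1, 58.8 and 27.7 CPM in KCL-HO-1i/5-FU, a log2 fold change of -1.14 ± 0.40 (adjusted p = 0.158, edgeR). Cdk1, the kinase that drives entry into mitosis, measured 55.1, 63.9, 59.1, 37.1 and 60.5 CPM and 30.5, 11.6, 19.0, 42.1 and 31.6 CPM in the same order, a log2 fold change of -1.03 ± 0.36. For both genes 4 treated tumours lay below every vehicle tumour and replicate 4 lay among them. Ccna2, cyclin A2, measured 81.5, 109, 114, 80.1 and 102 CPM in vehicle and 52.2, 17.5, 26.1, 77.1 and 58.6 CPM in the combination. Its log2 fold change was -1.07 ± 0.38, and that of Ccnb2 (cyclin B2) was -1.05 ± 0.38. Ccna2 was the 1 member for which all 5 treated tumours lay below every vehicle tumour. The same held for 283 of the 13663 genes tested (2.07%), so this full separation was not particular to the members.

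Kinases that start mitosis and build the spindle were lower to a like degree. Plk1, Polo-like kinase 1, was at 41.1, 43.7, 49.2, 36.2 and 67.5 CPM in vehicle and at 28.3, 7.64, 15.6, 46.5 and 18.7 CPM in KCL-HO-1i/5-FU, a log2 fold change of -1.03 ± 0.45. Aurka, the Aurora kinase of spindle poles, was at 27.6, 29.9, 35.9, 21.8 and 32.8 CPM and 19.5, 7.79, 8.72, 25.3 and 17.6 CPM, a log2 fold change of -0.91 ± 0.34. In both cases the lowest tumour was KCL-HO-1i/5-FU replicate 2, and replicate 4 lay inside the vehicle range. Pbk, a mitotic kinase, had the smallest p of all members (adjusted p = 0.125), with a log2 fold change of -1.01 ± 0.31 and levels of 53.4, 65.8, 54.4, 42.7 and 68.0 CPM in vehicle and 37.6, 12.3, 16.8, 45.0 and 29.2 CPM in the combination.

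The lowest log2 fold changes of all members were those of the spindle checkpoint genes Ttk and Bub1. Bub1, a kinase that recruits checkpoint proteins to unattached kinetochores, measured 17.8, 23.0, 30.9, 19.5 and 27.1 CPM in vehicle and 9.20, 3.78, 6.69, 20.8 and 10.5 CPM in KCL-HO-1i/5-FU, a log2 fold change of -1.21 ± 0.38 (adjusted p = 0.128, edgeR). Ttk, which encodes the checkpoint kinase MPS1, measured 15.8, 13.7, 19.0, 10.6 and 23.4 CPM and 6.71, 3.41, 5.90, 10.6 and 8.85 CPM, a log2 fold change of -1.22 ± 0.38. In both genes replicate 4 was the treated tumour that reached the vehicle range, for Ttk only at its lower edge. Bub1b, which encodes BUBR1, had a log2 fold change of -1.16, and Mad2l1, whose product binds Cdc20 until chromosomes are attached, had -0.69.

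Genes of the kinetochore and of anaphase followed. Ndc80, the subunit that grips microtubules, measured 17.1, 21.1, 24.5, 13.8 and 24.9 CPM in vehicle and 9.20, 3.34, 6.52, 20.7 and 9.24 CPM in KCL-HO-1i/5-FU, with a log2 fold change of -1.05 ± 0.35. Among the other 4 kinetochore and centromere genes the values were -0.82 for Cenpf, -0.77 for Nuf2, -0.76 for Cenpa, the centromeric histone H3 variant, and -0.59 for Cenpe, a kinetochore motor. Cenpa and Cenpe were thus among the 8 members whose unadjusted p was not under 0.05. Cdc20 (-1.05 ± 0.39) and Ube2c (-1.13 ± 0.40), the activator and the ubiquitin-conjugating enzyme of the anaphase-promoting complex, were lower at an unadjusted p under 0.05, and Espl1, the separase that cuts cohesin, was not (-0.65 ± 0.40).

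Motor and spindle genes were lower as well. The 5 kinesins ran from -0.94 for Kif11, which pushes spindle poles apart, to -0.66 for Kif23 of the central spindle. Among the 6 spindle microtubule genes, Tpx2, the activator of Aurora A, had -1.11, Hmmr -1.09, Prc1, which bundles the central spindle, -0.97, Nusap1 -0.92, Dlgap5 -0.74 and Aspm -0.72. The 3 cytokinesis genes Racgap1 (-0.85), Ect2 (-0.80) and Anln (-0.76) lay close together. Foxm1, the transcription factor of this programme, measured 27.6, 34.95, 43.9, 31.9 and 32.9 CPM in vehicle and 18.2, 7.79, 10.2, 32.2 and 18.6 CPM in the combination, a log2 fold change of -0.98 ± 0.32 (adjusted p = 0.137, edgeR). Its levels followed those of the genes it is known to regulate, with replicate 4 alone inside the vehicle range.

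**Figure D2:**
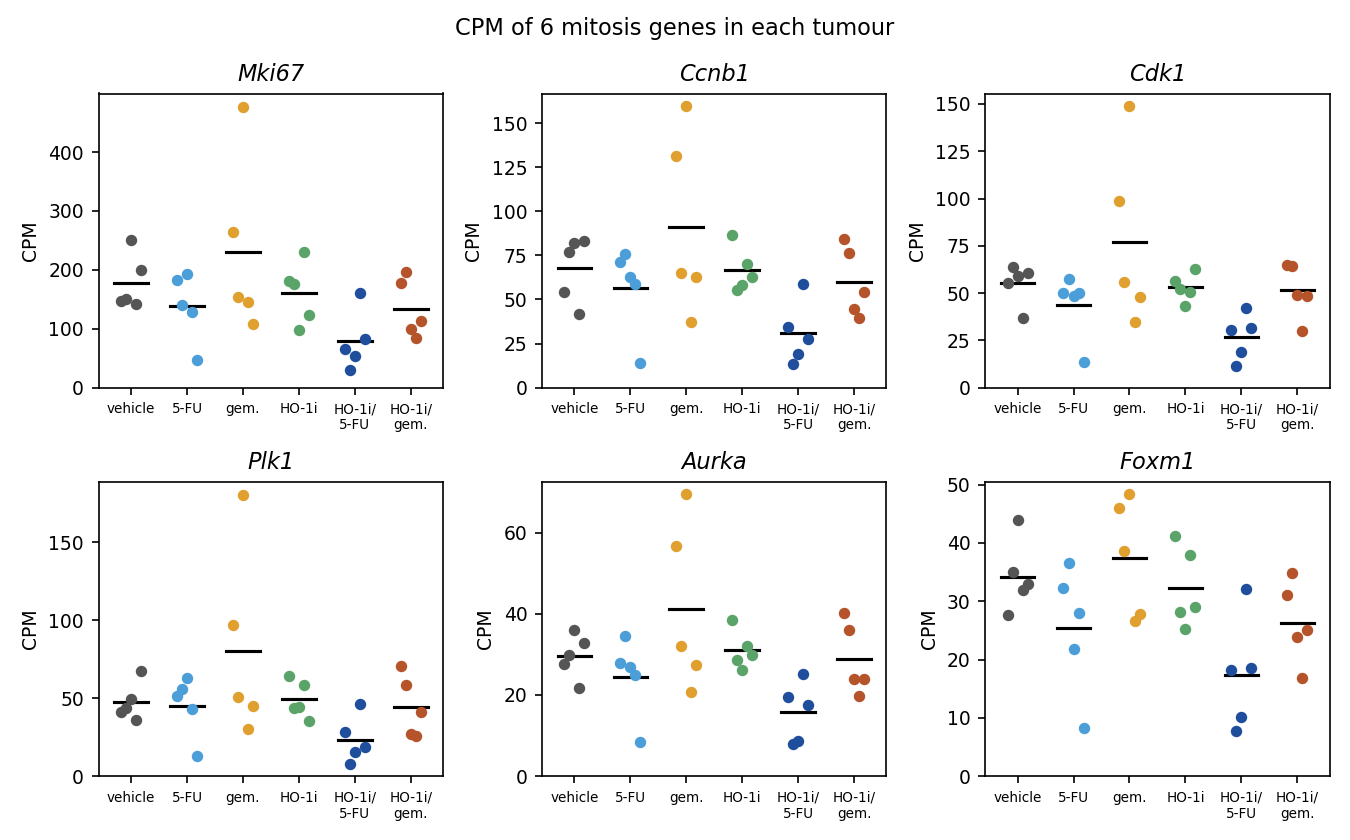
Level (CPM) of 6 mitosis genes in each tumour by treatment group; each point is 1 tumour, the black line is the group mean, and gem. and HO-1i on the axis stand for gemcitabine and KCL-HO-1i. In the KCL-HO-1i/5-FU group Ccnb1 ran from 13.4 to 58.8 CPM, against 41.7 to 83.2 CPM in vehicle.

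The smallest departures from vehicle were those of Birc5 and Top2a, both on chromosome 11. Hmmr and Aurkb lie on the same chromosome and were lower like most members. Birc5, which encodes survivin of the chromosomal passenger complex, measured 42.1, 69.3, 45.0, 53.8 and 43.2 CPM in vehicle and 26.2, 10.1, 15.1, 80.1 and 58.7 CPM in KCL-HO-1i/5-FU, a log2 fold change of -0.41 ± 0.41. Top2a, the topoisomerase that untangles sister chromatids, measured 115, 146, 156, 119 and 162 CPM and 168, 29.1, 46.5, 169.9 and 77.4 CPM, a log2 fold change of -0.51 ± 0.37. For Birc5 the treated replicates 4 and 5 were high, and for Top2a replicates 1 and 4, while the remaining tumours were low for both genes. The log2 fold changes of the other passenger subunits were -0.83 for Aurkb, -0.82 for Cdca8 and -0.71 for Incenp.

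Neighbouring genes were high in the same tumours. Relative to the mean of the other members, Top2a was 1.19 log2 units above its median deviation in KCL-HO-1i/5-FU replicate 1, and no other tumour exceeded 0.38. Of the 82 tested genes within 2 Mb of Top2a (chr11:98992947-99024199), 71 were above their own median over the 30 libraries in that tumour. Their median was 0.84 log2 units above it, against at most 0.17 in any other tumour. Birc5 (chr11:117849237-117855743) exceeded the other members most in KCL-HO-1i/5-FU replicate 5 (1.15), KCL-HO-1i/5-FU replicate 4 (0.77), gemcitabine replicate 4 (0.54) and vehicle replicate 4 (0.53). Its 63 tested neighbours had their highest medians in the same 4 tumours, at 0.98, 1.06, 0.76 and 0.61 log2 units, and the next was 0.21. Copy number of the DNA was not measured, and the part of such regions in the result was not tested. Over all members, the neighbours of Cdk1, Pbk, Ttk and Foxm1 each had 1 tumour with a median more than 0.5 log2 units from its usual level, so that 9 of 1200 values passed this limit.

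Neither chemotherapy alone moved the members past the test. In 5-FU tumours all 40 log2 fold changes were negative, from -0.53 to -0.01 with a median of -0.26, but 0 of 40 members passed the adjusted threshold, as 0% of all genes, and 0 had an unadjusted p under 0.05. The smallest p values were those of Anln (-0.53 ± 0.34, adjusted p = 0.999 in edgeR), Foxm1 (-0.43 ± 0.32) and Bub1 (-0.50 ± 0.37). Foxm1 measured 32.3, 36.6, 21.7, 27.9 and 8.23 CPM in the 5-FU tumours, Ccnb1 71.01, 75.9, 62.8, 58.6 and 14.1 CPM, Cdk1 49.9, 57.2, 48.3, 49.9 and 13.3 CPM, Plk1 51.2, 56.1, 63.28, 42.8 and 12.6 CPM and Aurka 27.8, 34.6, 27.0, 24.8 and 8.30 CPM. Top2a was at 159, 155, 123, 102 and 46.5 CPM and Birc5 at 49.5, 54.6, 45.5, 39.3 and 13.9 CPM in the same tumours. Replicate 5 was the lowest tumour of the group for each of these genes, and without that tumour the member median was -0.03 with 26 of 40 members below 0.

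In gemcitabine tumours the members leaned the other way. All 40 log2 fold changes were positive, from 0.13 to 0.76 with a median of 0.38, against 0.03 over all genes, and again 0 of 40 members passed (0% of all genes), with 0 at an unadjusted p under 0.05. The smallest p values were those of Plk1 (0.76 ± 0.45, adjusted p = 0.941), Kif20a (0.49 ± 0.30) and Aurkb (0.52 ± 0.33) in edgeR. Plk1 measured 96.7, 50.5, 180.2, 30.1 and 44.8 CPM, Ccnb1 131, 65.03, 159.6, 37.3 and 62.8 CPM, Cdk1 98.7, 55.9, 149, 34.8 and 47.8 CPM and Aurka 56.7, 31.97, 69.396, 20.8 and 27.4 CPM. Replicates 1 and 3 were high and replicate 4 low for all 4 genes, so the group straddled vehicle. Top2a (257, 177, 220.1, 116 and 95.1 CPM), Birc5 (68.0, 48.6, 113, 45.2 and 32.5 CPM) and Foxm1 (46.0, 38.6, 48.4, 26.6 and 27.8 CPM) were highest in the same 2 tumours. The member median was 0.23 without replicate 1 and 0.14 without replicate 3, and with limma-voom and its quality weights it was 0.05. Without replicate 4, 5 members had an unadjusted p under 0.05.

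With KCL-HO-1i alone the members lay close to vehicle. The median log2 fold change was -0.02, with 14 members above and 26 below 0 and a range of -0.19 to 0.21, and 0 of 40 passed the threshold (0% of all genes). The members with the smallest p were Cenpa above vehicle (0.21 ± 0.39, adjusted p = 0.956 in edgeR) and Top2a (-0.18 ± 0.37) and Birc5 (-0.19 ± 0.41) below. Mki67 had a log2 fold change of -0.14 ± 0.41 and an adjusted p of 0.977, with an error several times the value. By tumour, Ccnb1 was at 86.4, 55.4, 57.9, 70.21 and 62.8 CPM, Cdk1 at 56.2, 52.2, 43.2, 50.5 and 62.7 CPM, Plk1 at 64.2, 43.5, 44.1, 58.6 and 35.6 CPM and Aurka at 38.5, 28.6, 26.1, 32.02 and 29.9 CPM. Top2a was at 154, 111, 91.5, 139.8 and 119 CPM, Birc5 at 50.5, 38.7, 39.6, 42.8 and 50.4 CPM and Foxm1 at 41.2, 28.1, 25.3, 38.0 and 29.0 CPM. The median coefficient of variation over the members was 17.98% in this group, against 19.1% in vehicle, 27.6% in KCL-HO-1i/gemcitabine, 39.7% in 5-FU, 49.3% in gemcitabine and 55.0% in KCL-HO-1i/5-FU.

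The combination of KCL-HO-1i with gemcitabine also lay near vehicle. The member median was -0.15, with 38 of 40 below 0, and 0 of 40 passed the threshold (0% of all genes), led by Top2a (-0.46 ± 0.37, adjusted p = 0.533 in edgeR), Foxm1 (-0.38 ± 0.32) and Kif4 (-0.41 ± 0.37). In this group Top2a was at 113, 129, 107, 78.2 and 81.4 CPM, Foxm1 at 31.0, 34.8, 23.8, 16.9 and 25.1 CPM and Ccnb1 at 84.2, 76.33, 44.7, 39.3 and 54.2 CPM. Cdk1 measured 64.7, 64.5, 48.8, 30.0 and 48.7 CPM, Plk1 70.4, 58.6, 26.9, 25.6 and 41.2 CPM, Aurka 40.3, 35.9, 23.9, 19.8 and 24.0 CPM and Birc5 59.3, 49.2, 36.8, 28.3 and 44.8 CPM. Replicate 4 lay below every vehicle tumour for all 7 of these genes, and replicates 1 and 2 were the highest 2 tumours of the group in each. Replicates 1, 3 and 5 also lay below every vehicle tumour for Top2a. The same held for replicates 3 and 5 for Foxm1, and for replicate 3 for Plk1 and Birc5. By the member mean, replicate 4 was at 4.67, below the vehicle range, and the others of this group were between 5.02 and 5.54. Replicates 3 (5.020) and 5 (5.026) lay just below the lowest vehicle tumour (5.033). Leaving out single tumours moved the member median between -0.27 and -0.06, the former without replicate 1 or 2 and the latter without replicate 4, and it was -0.25 without vehicle replicate 4.

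**Figure D3:**
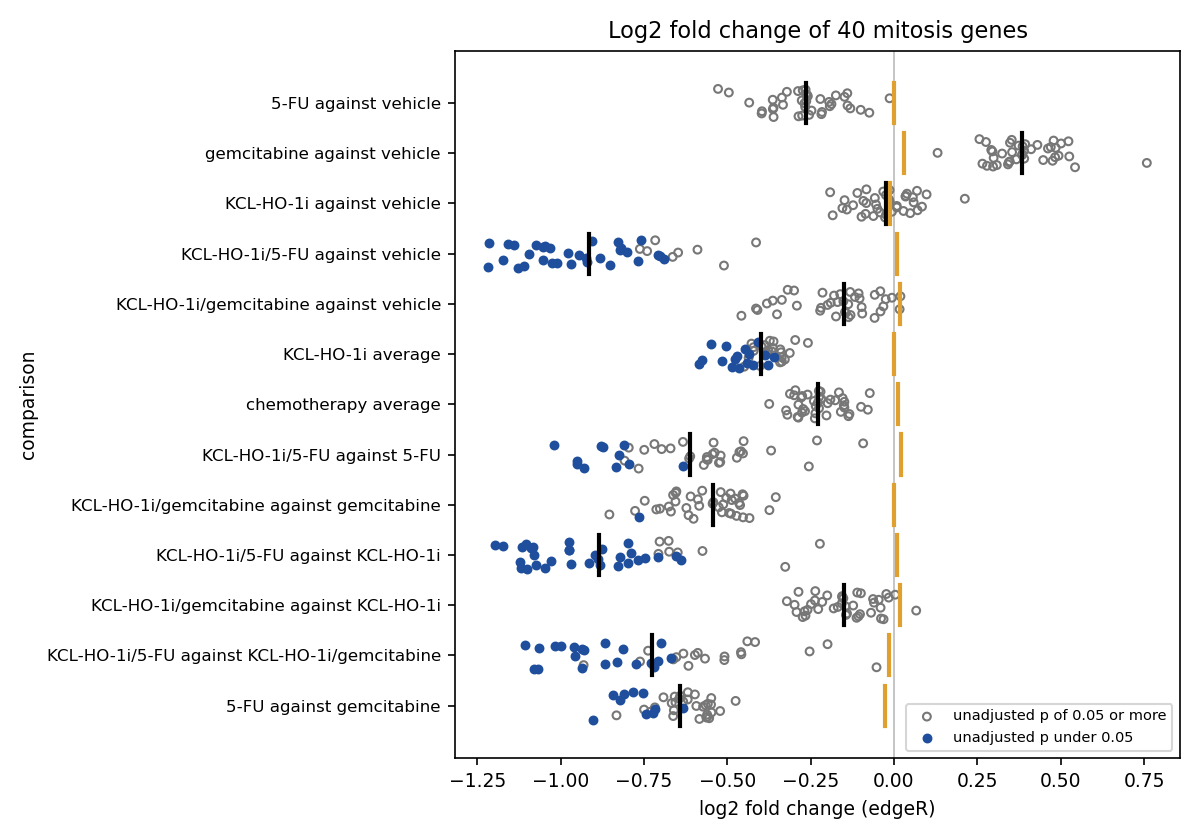
Log2 fold change in edgeR (horizontal axis) of each of the 40 mitosis genes in 13 comparisons (rows, where "average" means over the other treatments); each point is 1 gene, filled where its unadjusted p was under 0.05, the black bar marks the median of the members and the orange bar that of all genes tested. No point passed the adjusted threshold; the KCL-HO-1i/5-FU points against vehicle (median -0.91) all lie left of 0 and the gemcitabine points against vehicle (median 0.38) all lie right of it.

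The design also asks what KCL-HO-1i adds to each chemotherapy and what chemotherapy adds to KCL-HO-1i. Against 5-FU alone, KCL-HO-1i/5-FU had a member median of -0.61, all 40 below 0, 0 of 40 past the adjusted threshold (0% of all genes) and 11 lower at an unadjusted p under 0.05, against 5.26% of all genes. Ndc80 (-0.95 ± 0.35, adjusted p = 0.344), Bub1b (-1.02 ± 0.40) and Pbk (-0.80 ± 0.31) led this comparison in edgeR. Its unadjusted count rested on single tumours, at 30 without 5-FU replicate 5 and 37 without KCL-HO-1i/5-FU replicate 4 (median -0.99), but 1 without KCL-HO-1i/5-FU replicate 2, 3 without its replicate 3, and 4, 3, 7 and 6 without 5-FU replicates 1, 2, 3 and 4. The count of adjusted calls stayed at 0 in each of these. Against KCL-HO-1i alone the median was -0.89, with 0 of 40 past the threshold (0% of all genes) and 32 lower at an unadjusted p under 0.05, against 9.43% of all genes. Here Ndc80 (-1.12 ± 0.35, adjusted p = 0.126), Pbk (-0.97 ± 0.31) and Ccna2 (-1.17 ± 0.38) led. The unadjusted count was 20 without KCL-HO-1i replicate 1, 18 without replicate 2 of the combination and 19 without its replicate 3. In 36 of 40 members at least 4 of 5 combination tumours lay below every KCL-HO-1i tumour, against 8.33% of all genes tested.

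The same questions were asked for gemcitabine. Against gemcitabine alone, KCL-HO-1i/gemcitabine had a member median of -0.54 with all 40 below 0, 0 of 40 past the threshold (0% of all genes) and 1 lower at an unadjusted p under 0.05, against 6.51% of all genes. That member was Top2a (-0.77 ± 0.37, adjusted p = 0.365), followed by Incenp (-0.58 ± 0.29) and Aurkb (-0.65 ± 0.33). With the mouse code of the labels as a covariate the direction of the median turned, to 0.76. Again for members only, the unadjusted count was 22 without gemcitabine replicate 4 and 16 without its replicate 5. It was between 0 and 11 without any other tumour, and the median was -0.31 without gemcitabine replicate 3. Against KCL-HO-1i alone the median was -0.15, with 0 of 40 past the threshold (0% of all genes) and 0 at an unadjusted p under 0.05. Foxm1 had the smallest p there, with -0.30 ± 0.32.

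Averaged over its 3 backgrounds, KCL-HO-1i was accompanied by lower values of all 40 members, with a median of -0.40 and a range of -0.59 to -0.26. None of the 40 passed the adjusted threshold, against 0.0586% of all genes (8 genes), and 17 were lower at an unadjusted p under 0.05, against 9.22% of all genes. Ndc80 (-0.52 ± 0.20, adjusted p = 0.127), Pbk (-0.44 ± 0.18) and Bub1b (-0.55 ± 0.23) had the smallest p in edgeR. Without replicate 4 of the 5-FU combination, 3 of 40 members were called and 840 genes in all, so calls were not particular to members. The unadjusted count was then 38, and it was 35 without 5-FU replicate 5, 33 without gemcitabine replicate 4 and 27 without its replicate 5. The count was 10 without vehicle replicate 5, 11, 10 and 11 without 5-FU replicates 1, 2 and 3, 6 and 3 without gemcitabine replicates 1 and 3, 5 when KCL-HO-1i/gemcitabine replicate 4 was dropped, and 6 and 7 without KCL-HO-1i/5-FU replicates 2 and 3. The average over both chemotherapies and both backgrounds had a median of -0.23 with all 40 below 0, 0 of 40 past the threshold (0% of all genes) and 0 at an unadjusted p under 0.05, led by Foxm1 (-0.37 ± 0.19, adjusted p = 0.679), Prc1 (-0.32 ± 0.20) and Anln (-0.30 ± 0.20). Without KCL-HO-1i/5-FU replicate 4 the unadjusted count was 4.

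A further 4 comparisons were added after the values had been seen. The 5-FU combination set against the gemcitabine combination had a member median of -0.72 with all 40 below 0, 0 of 40 past the threshold (0% of all genes) and 21 lower at an unadjusted p under 0.05, against 7.79% of all genes, led by Bub1 (-1.11 ± 0.38, adjusted p = 0.229), Ttk (-1.08 ± 0.38) and Ccnb2 (-1.07 ± 0.38) in edgeR. With limma-voom 2 of 40 members were called there, a count given without the share of all genes in that fit. The unadjusted count was 37 without replicate 4 of the 5-FU combination, 7 and 10 without its replicates 2 and 3, and 11 and 10 without replicates 1 and 2 of the gemcitabine combination. Between the chemotherapies given alone, 5-FU lay below gemcitabine with a median of -0.64 over the members, 0 of 40 past the threshold (0% of all genes) and 10 lower at an unadjusted p under 0.05, against 3.59%. Aurkb (-0.81 ± 0.33, adjusted p = 0.823), Anln (-0.78 ± 0.34) and Ube2c (-0.90 ± 0.39) led this contrast. None had an unadjusted p under 0.05 without 5-FU replicate 5, gemcitabine replicate 1 or gemcitabine replicate 3, whereas 28 had without gemcitabine replicate 4 and 19 without its replicate 5. The interaction of KCL-HO-1i with 5-FU, which asks whether the combination departs from the sum of the log2 changes of its parts, had a median of -0.59 and 0 of 40 past the threshold (0% of all genes), with 1 member, Ndc80 (-1.02 ± 0.49, adjusted p = 0.58), at an unadjusted p under 0.05, against 4.51%. The count was 14 without 5-FU replicate 5 and also 14 without KCL-HO-1i/5-FU replicate 4 (median -0.95), and with replicate 2 of that group dropped the median was -0.39. The interaction with gemcitabine had a median of -0.54 and 0 of 40 past the threshold (0% of all genes), with no member at an unadjusted p under 0.05, and a median of -0.30 without gemcitabine replicate 3. With the mouse code as a covariate both interaction medians turned direction, to 0.62 for 5-FU and 1.03 for gemcitabine. These comparisons share tumours with those above and are not independent of them.

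The mouse code was unevenly spread over the groups. Vehicle shared only 1 code, 84, with another group. Of the spread of the member mean, 48.4% lay between the 13 codes. A factor with more levels takes up a larger share by itself. This share therefore cannot be set against the 38.7% between the 6 groups. The lowest 5-FU tumour and the lowest KCL-HO-1i/5-FU tumour both carried code 74, with member means of 3.55 and 3.17, but so did KCL-HO-1i/5-FU replicate 4, at 5.38. Code 76 held 3 5-FU tumours (5.26 to 5.43) and 4 gemcitabine tumours (4.78 to 6.44). Within code 70, KCL-HO-1i/5-FU replicate 3 was at 3.81, 2 KCL-HO-1i tumours at 5.09 and 5.18 and 1 KCL-HO-1i/gemcitabine tumour at 5.54. Within code 65, the KCL-HO-1i/5-FU tumours were at 4.52 and 4.56 and the KCL-HO-1i tumour at 5.28. So in both codes that held KCL-HO-1i/5-FU and single-agent KCL-HO-1i tumours, the combination lay lower. With the code as a covariate the member median was -0.99 for KCL-HO-1i/5-FU against vehicle and -0.78 against KCL-HO-1i. The values against vehicle in this fit rest on vehicle replicate 1 alone, whose code 84 is shared with KCL-HO-1i/gemcitabine replicate 5. The vehicle term of the averages and of the interactions rests on that tumour too. The other vehicle tumours carry codes found in no other group. For the averaged KCL-HO-1i contrast the direction turned, to 0.31, as it did against 5-FU (0.39), for the gemcitabine combination against gemcitabine (0.76) and against KCL-HO-1i (0.13), for gemcitabine against vehicle (-0.91), and for both interactions. No member was called in these fits. Code and treatment are largely confounded and in most contrasts cannot be told apart.

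Across tumours the 40 genes moved almost as one. The median Pearson r of log2 CPM over the 780 pairs of members was 0.94 across the 30 tumours, from 0.76 for Birc5 with Incenp to 0.99 for Cdk1 with Ube2c, and 0.92 with group means removed. All points share the same libraries and scaling. KCL-HO-1i/5-FU replicate 2 was the lowest tumour for 36 members and 5-FU replicate 5 for 3, while gemcitabine replicate 3 was the highest for 29 and gemcitabine replicate 1 for 11. The fold between the lowest and the highest tumour ran from 5.95 for Incenp to 23.6 for Plk1, with a median of 10.2. Kif11, Cdc20 and Bub1b followed the mean of the other members most closely (r = 0.99 each), and Birc5 (0.88) and Top2a (0.90) least. Incenp had the flattest slope on that mean, 0.72, so its values were drawn in relative to the rest.

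**Figure D4:**
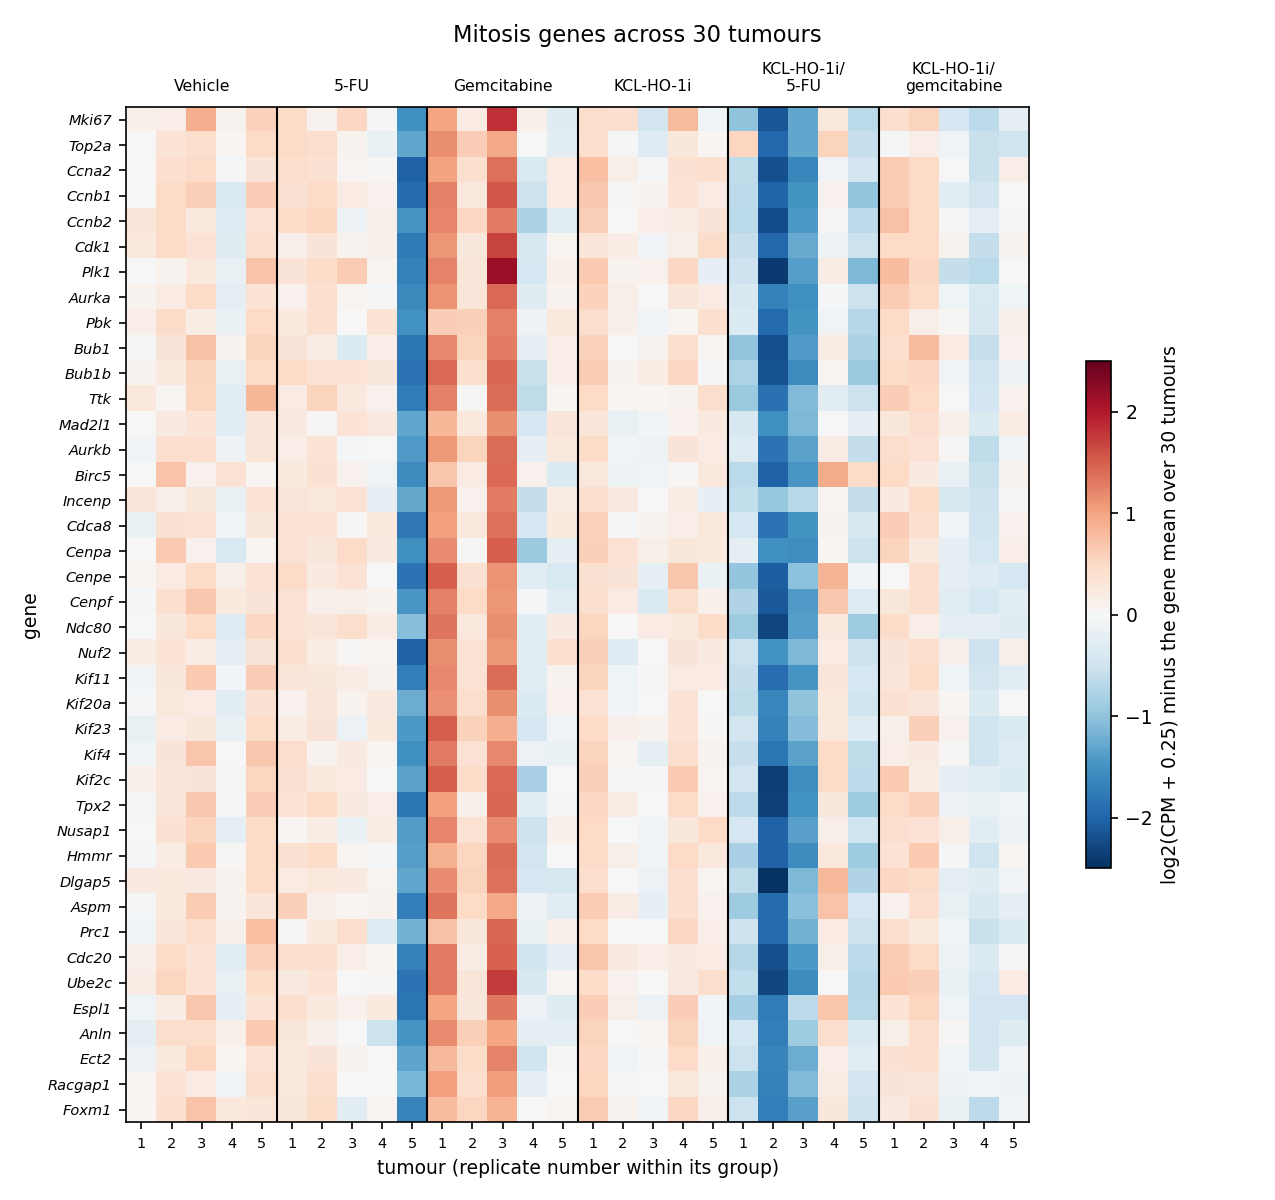
Heatmap of the 40 mitosis genes (rows, grouped by role) in the 30 tumours (columns, grouped by treatment), each cell being log2(CPM + 0.25) minus the mean of that gene over the 30 tumours, red above and blue below it. Whole columns are low in KCL-HO-1i/5-FU replicates 2 and 3 and 5-FU replicate 5 and high in gemcitabine replicates 1 and 3, while Birc5 and Top2a break the column pattern in KCL-HO-1i/5-FU replicates 1, 4 and 5.

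Per kb of annotated exon, Cdc20 was the most abundant member in vehicle tumours at 53.3 ± 11.4 CPM per kb (SD, n = 5). Pbk (31.7 ± 5.74), Ube2c (31.4 ± 5.81) and Ccnb2 (30.8 ± 5.86) came next and did not differ beyond their spread. They were followed by Ccna2 (23.9 ± 3.85), Plk1 (21.6 ± 5.50), Mki67 (17.7 ± 4.66) and Ccnb1 (16.0 ± 4.41), whose ranges overlapped. The least abundant were Espl1 (2.03 ± 0.52) and Aspm (1.83 ± 0.35), the latter a large spindle-pole protein.

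Genes of the rest of the division programme were taken from lists of their own. Of 84 further genes of G2/M and mitosis, 49 were lower at an unadjusted p under 0.05 in KCL-HO-1i/5-FU against vehicle (7.84% of all genes tested were), with a median of -0.72, and 0 passed the adjusted threshold. Wee1 (-0.76 ± 0.21, adjusted p = 0.119), which holds Cdk1 inactive, Ncapd2 (-1.06 ± 0.30), a condensin subunit, and Hjurp (-0.68 ± 0.21), which loads Cenpa, had the smallest p. Of 35 genes of S phase, 20 were lower by the same rule (again beside 7.84% of all genes), with a median of -0.60, and 0 passed the adjusted threshold. Rrm1 (-0.92 ± 0.24, adjusted p = 0.119), a subunit of ribonucleotide reductase, Fen1 (-0.87 ± 0.23), a flap endonuclease, and Mcm10 (-1.22 ± 0.33), a replication initiation factor, led it. For KCL-HO-1i averaged over its backgrounds, 26 of the 35 S phase genes were lower at an unadjusted p under 0.05, against 9.22% of all genes, with a median of -0.40, and the smallest adjusted p was that of Rrm1 and Fen1, 0.0525. Gemcitabine tumours had positive values for all 35 S phase genes (median 0.37), led by Ccne1 (1.00 ± 0.42, adjusted p = 0.941), cyclin E1. In edgeR, 0 S phase genes passed in that comparison.

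The member mean was set beside the mean of the S phase genes. Over the 30 tumours the SD of the member mean was 0.69 log2 units, against 0.47 for the S phase genes and 0.49 for the 84 further mitosis genes, so the wider spread held for the 40 members and not for the further list. The member and S phase means correlated with r = 0.97. In vehicle tumours the member mean exceeded the S phase mean by 0.16 ± 0.06 log2 units and in KCL-HO-1i tumours by 0.19 ± 0.07. In KCL-HO-1i/5-FU tumours the difference was -0.21 ± 0.37, in 5-FU tumours -0.11 ± 0.28, in gemcitabine tumours 0.08 ± 0.29 and in KCL-HO-1i/gemcitabine tumours 0.10 ± 0.15. The differences were not tested, and the groups with spread-out member means also spread here.

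**Figure D5:**
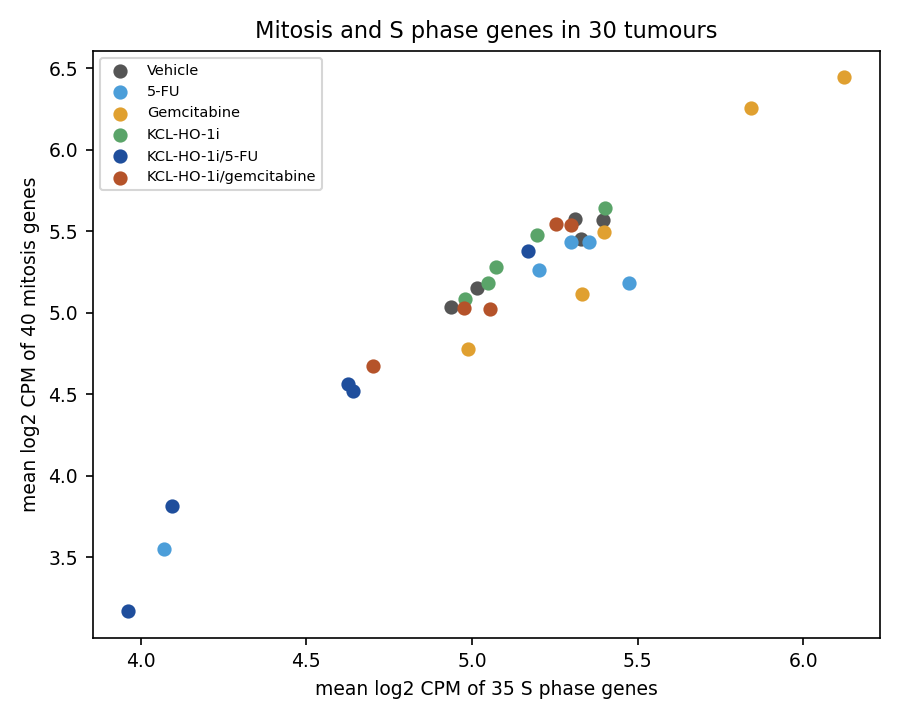
Mean log2 CPM of the 40 mitosis genes (vertical axis) against that of 35 S phase genes (horizontal axis) in the 30 tumours, coloured by group. The points lie along 1 line (r = 0.97), with KCL-HO-1i/5-FU replicate 2 at the lower end and gemcitabine replicate 3 at the upper end.

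Inhibitors of the cell cycle went both ways. Of 15 such genes, 8 were above and 7 below vehicle in KCL-HO-1i/5-FU, with a median of 0.05 and 0 past the adjusted threshold. At an unadjusted p under 0.05, 4 were higher, against 9.79% of all genes tested, led by Rb1 (0.98 ± 0.36, adjusted p = 0.173), the retinoblastoma gene, Gadd45a (1.12 ± 0.43), a stress-induced gene, and Cdkn1a (1.08 ± 0.44), which encodes p21. In gemcitabine tumours Cdkn1b, which encodes p27, had the smallest p of this list (-0.43 ± 0.13, adjusted p = 0.941).

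Markers of other cell types were set beside the member mean. Over the 30 tumours r was 0.19 for the mean of the epithelium markers, -0.02 for adipocyte, 0.05 for skeletal muscle, -0.26 for fibroblast, -0.34 for macrophage, -0.21 for T cell and -0.32 for endothelium markers. In KCL-HO-1i/5-FU the summed macrophage markers ran from 305 to 780 CPM, against 72.6 to 305 CPM in vehicle, and the summed fibroblast markers from 176 to 4680 CPM, against 107 to 902 CPM. These sums were not particular to that group. Macrophage sums were 285 to 662 CPM in KCL-HO-1i and 379 to 693 CPM in KCL-HO-1i/gemcitabine tumours. Fibroblast sums in the same 2 groups were 376 to 3641 CPM and 327 to 12086 CPM. KCL-HO-1i/5-FU replicate 3, the second lowest tumour of its group, held the lowest epithelium sum of the group (2536 CPM) and its highest fibroblast sum. With the epithelium mean as a covariate the member median for KCL-HO-1i/5-FU against vehicle was -0.85, and without it -0.91. The part of macrophage and fibroblast content was not tested. Gemcitabine replicate 3, the tumour with the highest member mean, had a summed B cell marker level of 22.2 CPM, against at most 6.52 CPM elsewhere. Only 1 of the 6 B cell markers passed the filter on low counts. Its r with the member mean over the 30 tumours was -0.11.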

How the data were processed

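Total RNA of 30 mammary tumours was sequenced with a stranded library kit. Per the processing notes and the methods, the authors used FastQC 0.11.9, STAR 2.7.9a, Salmon 1.9.0 and tximport on mm10, and DESeq2 for testing. The annotation release is not given in the sources used here. The deposited table holds expected counts per gene; library totals differ, so they are not TPM.

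Values were rounded, and 13663 genes passed filterByExpr by group (minimum count 10). The main test was the two-sided quasi-likelihood test of edgeR 4.0.16 (R 4.3.3; robust, TMM, 6 group means over 30 libraries), with Benjamini-Hochberg adjustment over all genes and a threshold of 0.05. Alternatives used DESeq2 1.42.0, limma 3.58.1 (voom), other scaling and filters, a replicate block, mouse code and epithelium as covariates, and each library left out. CPM used effective library sizes, and log2 CPM a prior count of 2. Members, lists and tests were chosen with earlier results of these data known. All 40 members could be named, 8 always with values per library, and otherwise up to 3 in each direction with the smallest p. Within groups, no library was a repeat of another (chi-square per degree of freedom at least 20.7 over 60 pairs). Pairs across groups were not compared in this way. Each library came from a separate mouse. The floor of 3 counts covers counting error only, whereas ± values are SDs between tumours or SEs of the fit.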

Additional observations from a re-analysis of the deposited data

Results flagged for a closer look

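A tumour of the 5-FU group, replicate 5, lay apart from the other 4 in 3 of the values above. Its mean log2 CPM over the 40 mitosis genes was 3.55, its Ccnb1 level 14.08 CPM and its Cdk1 level 13.26 CPM, each below the others by a gap that passes Dixon's 95% value for 5 samples. Among all members tested in the same way, 16 had this tumour as a low outlier, 2 had KCL-HO-1i/5-FU replicate 4 as a high one and 1 had KCL-HO-1i replicate 1 as a high one, of 240 tests, where chance gives about 1 in 20. The tests share tumours and the genes move together. Without this tumour, a member median is given above for 5-FU against vehicle. The other comparisons that use the 5-FU group have unadjusted counts without it, except the chemotherapy average.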

How the results depend on the processing

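For KCL-HO-1i/5-FU against vehicle, where edgeR called 0 members, DESeq2 called 2 and limma-voom with quality weights 10, and leaving out single libraries gave 0 to 8, with 8 only without KCL-HO-1i/5-FU replicate 4. For the KCL-HO-1i average the counts without single libraries ran from 0 to 3. The count of 3 arose without the same tumour, where many other genes were called as well. Between the combinations limma-voom called 2 members, again without the share of all genes beside it. Adding the mouse code as a covariate gave member medians of -1.46 for 5-FU against vehicle, -0.91 for gemcitabine against vehicle, 0.31 for the KCL-HO-1i average, 0.39 for KCL-HO-1i/5-FU against 5-FU, 0.76 for KCL-HO-1i/gemcitabine against gemcitabine, 0.62 for the interaction with 5-FU and 1.03 for that with gemcitabine, so the last 6 turned direction, and the cause was not tested. In that fit the values against vehicle rest on vehicle replicate 1 alone, which shares its code with KCL-HO-1i/gemcitabine replicate 5. The vehicle term of the KCL-HO-1i average and of both interactions rests on it too. Tumours given 5-FU or gemcitabine alone shared codes with the KCL-HO-1i groups only in 5-FU replicates 4 (code 69) and 5 (code 74). The median for KCL-HO-1i/gemcitabine against KCL-HO-1i, -0.15, became 0.13 in the same fit, and the median for KCL-HO-1i alone (-0.02) crossed 0 under 6 settings. Replicate numbers did not pair the tumours (mean residual r 0.00284 over 75 pairs, from -0.58 to 0.48). With the replicate block 0 members were called in any comparison, the median for KCL-HO-1i/5-FU against vehicle was -0.95, and the unadjusted counts were 7 for the KCL-HO-1i average and 4 for KCL-HO-1i/5-FU against 5-FU. With KCL-HO-1i/5-FU replicate 2 and gemcitabine replicate 3 left out together, a choice made after seeing the data, the median for KCL-HO-1i/5-FU against vehicle was -0.71 with 21 members lower at an unadjusted p under 0.05, and that for gemcitabine against vehicle 0.13. Over all genes DESeq2 called 1139 for the KCL-HO-1i average (edgeR 8) and, where edgeR called 0, it called 408 against vehicle for the combination with 5-FU, 883 for that with gemcitabine, 119 for KCL-HO-1i alone, 390 for the 5-FU combination against the single inhibitor and 216 between the combinations. Counts were high enough for every member, and the spread between tumours, with a biological coefficient of variation of 0.401, sets the precision.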

Other observations

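Outside the 40 members, the genes whose log2 CPM followed the standardised member mean most closely over the 30 tumours were Kifc1 (r = 0.98), a minus-end kinesin, Ncapg and Ncaph of condensin, Kif22, Melk, Traip, Tacc3, Cip2a, Cdca2 and Depdc1a, of which Depdc1a had the lowest r (0.97). Of these 10, 6 were in the list of further mitosis genes and 0 in that of S phase, out of 13623 genes compared. The genes that ran most opposite were Dtx3 (-0.84), Phf1 (-0.81) and Borcs6 (-0.80).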
